A study of Homo sapiens with 12 samples.

Results

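The BCL2 family controls the integrity of the mitochondrial outer membrane, whose loss releases cytochrome c and commits a cell to apoptosis. Survival members hold the pore-forming members in check. BH3-only members, named for the short helix they share with the rest of the family, neutralise the survival members or activate the pore formers directly, and many of them are controlled at the level of transcription by stress and by loss of growth factors. Here 10 genes of the family were followed: the survival members BCL2, BCL2L1 (BCL-XL) and MCL1, the pore formers BAX and BAK1, and the BH3-only genes BID, BBC3 (PUMA), PMAIP1 (NOXA), BCL2L11 (BIM) and BIK. BCL2 and PMAIP1 lie on the long arm of chromosome 18 (18q).

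The genes were chosen by name, and each was measured by probe sets that name it alone, of which the one with the highest mean over all 12 arrays stood for the gene. Of the 10 members 9 had such a probe set, among 19775 genes on the array that had one. BBC3 is named only together with another gene and has no value here. The 9 members had 30 probe sets of their own, 20 of them over the signal floor of the filter (6.64 on the log2 scale). A probe set counted as over the floor unless it stayed at or below it on 9 or more of the 12 arrays. Such a probe set could therefore lie below the floor on single arrays. The representative probe sets of 7 members passed that floor, and those of 5 members (BCL2L1, BAX, BID, PMAIP1 and BCL2L11) also passed the filter on spread over the arrays and were tested. The representatives of MCL1 and BAK1 varied too little to be tested, and those of BCL2 and BIK lay below the floor. Of the other MCL1 probe sets 2 were tested. Because the second filter keeps what varies, the tested members do not stand for the whole family, and the untested ones are given from a fit without filter.

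RNA came from SaOS-2, an established human osteosarcoma line, and from clones of the same line, wt22 and wt36, stably transfected with CD99, a cell surface glycoprotein, and named Sa/CD99. Affymetrix HG-U133 Plus 2.0 arrays were run at day 0, before the change of medium, and at days 7 and 14 of culture in a medium promoting osteoblast differentiation, 2 arrays per group. Every Sa/CD99 group holds 1 array of each clone, so its spread is that between 2 clones. For the 2 SaOS-2 arrays of a day the labels name no separate cultures, so p-values reflect the spread among these arrays alone and that spread may be technical.

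The CD99 probe sets showed no rise past the test in the arrays labelled Sa/CD99. The one of higher mean lay at 12.30, 12.52 and 12.66 in SaOS-2 and at 12.32, 12.59 and 12.70 in the arrays labelled Sa/CD99 on the 3 days (log2 group means), and the other probe set was lower in the latter, by -4.60, -4.17 and -3.23 on the log2 scale (adjusted p by limma between 0.0022 and 0.0084). Directions between lines are therefore given as the labels have them. Parental pairs correlated at 0.995 to 0.997 across tested probe sets and clone pairs at 0.958 to 0.965. Of 8 osteoblast markers with a probe set of their own, 7 lay over the floor, SPP1 being the exception, while none of the endothelial, blood and adipocyte markers did. Of the epithelial markers 2 of 5 (EPCAM and KRT18) and of the skeletal muscle markers 2 of 4 (CKM and MYH3) lay over it, the latter with a summed log2 signal of 8.06 to 9.01 in SaOS-2 and 8.18 to 10.3 in the arrays labelled Sa/CD99. A marker over the floor did not have signal on every array. The osteoblast marker IBSP ran from 3.26 to 10.67 and MYH3 from 3.47 to 9.89 over the arrays. In bulk samples, fewer cells of a type and less RNA per cell cannot be told apart.

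The first question was which members differed between the lines on each day. PMAIP1, a BH3-only protein that binds MCL1 and promotes its degradation, was the only tested member called, and at days 7 and 14 its signal was lower in Sa/CD99 arrays, as labelled. A gene was called at a Benjamini-Hochberg adjusted p of at most 0.05 and a change of at least 1.5-fold. At day 0 none of the 5 tested members was called by limma (background 1.16% of 6644 genes tested), although 2, PMAIP1 and BAX, had an unadjusted p under 0.05. The share of all genes at that unadjusted level was not counted. At days 7 and 14, 1 of 5 was called (background 1.84% and 1.66%; for lower calls alone 1.28% and 1.48%, for higher calls 0.557% and 0.181%).

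At day 0, PMAIP1 values were 8.51 and 8.55 in SaOS-2, 7.91 in clone wt22 and 7.45 in clone wt36. At day 7 they were 10.53 and 10.48 in SaOS-2, 9.48 in wt22 and 8.88 in wt36. At day 14 they were 9.79 and 9.86 in SaOS-2, 8.89 in wt22 and 8.44 in wt36. Both clones lay below both parental arrays on every day, and wt36 lay below wt22 on every day. The wt36 array of day 7 stood apart in a measure of RNA quality, given below with BCL2L1, whose part in the PMAIP1 values was not tested. The log2 differences were -0.85 at day 0 (SE 0.22, adjusted p = 0.109 by limma), -1.32 at day 7 (SE 0.22, adjusted p = 0.0204), a 2.50-fold lower signal, and -1.17 at day 14 (SE 0.22, adjusted p = 0.0373), a 2.24-fold lower signal. With clone as a fixed term the day 0 difference of the same size passed the threshold (adjusted p = 0.000813 by limma). That fit takes the difference between the clones out of the spread, so its p-value speaks for these 2 clones only. The calls at days 7 and 14 were lost without any single one of the 6 SaOS-2 arrays (adjusted p between 0.0512 and 0.186 at day 7, and between 0.0795 and 0.271 at day 14) and without wt36 of the same day (-1.02, adjusted p = 0.0797 at day 7; -0.94, adjusted p = 0.0817 at day 14), and in fits of each day's groups alone (adjusted p = 0.161 and 0.151).

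The second PMAIP1 probe set was also lower in both clones than in both parental arrays on each day. Its log2 differences were -0.70, -1.15 and -1.23 on the 3 days, called at day 7 (adjusted p = 0.0328 by limma) and at day 14 (adjusted p = 0.0316). Ordered by group mean of the representative probe set, PMAIP1 was lowest in Sa/CD99 at day 0 (7.68 ± 0.32, SD, n = 2), followed by SaOS-2 at day 0 (8.53 ± 0.03), Sa/CD99 at day 14 (8.66 ± 0.32), Sa/CD99 at day 7 (9.18 ± 0.43), SaOS-2 at day 14 (9.83 ± 0.05) and SaOS-2 at day 7 (10.50 ± 0.03). The arrays of SaOS-2 at day 0 fell inside the range of Sa/CD99 at day 14, and those of Sa/CD99 at days 14 and 7 overlapped by a margin (8.89 in wt22 at day 14 against 8.88 in wt36 at day 7). The remaining neighbours in this order did not overlap.

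**Figure D1:**
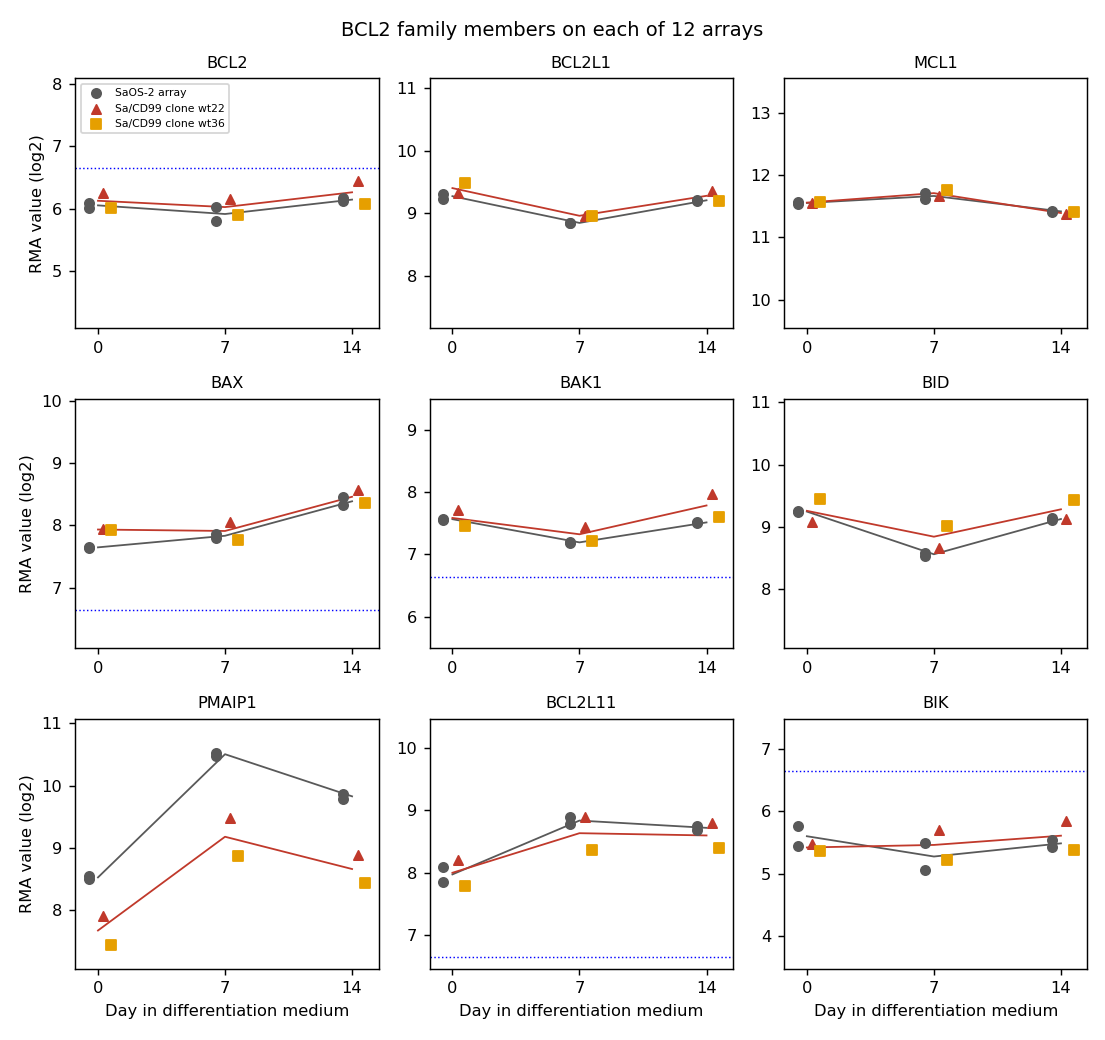
RMA values (log2) of the 9 measured BCL2 family members for all 12 arrays, by day of culture in differentiation medium. Grey circles are SaOS-2 arrays, red triangles clone wt22, orange squares clone wt36, lines are group means of 2 arrays (red for both clones), and the dotted blue line, where in range, is the signal floor of 6.64. For PMAIP1 every Sa/CD99 array lies below both SaOS-2 arrays of its day.

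The other BH3-only members were not called between the lines. BID, which caspase-8 cleaves to pass death receptor signals on to mitochondria, differed by 0.01, 0.28 and 0.16 at days 0, 7 and 14. BCL2L11, whose product binds all survival members, differed by 0.03, -0.20 and -0.12. The clones lay on opposite sides of the parental mean for BID at day 0 (9.07 and 9.44 against 9.26 and 9.24) and for BCL2L11 at day 0 (8.21 and 7.79 against 7.85 and 8.09). BIK, a BH3-only protein of the endoplasmic reticulum, lay between 5.05 and 5.84 on all 12 arrays, below the floor, with differences of -0.18, 0.19 and 0.12.

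Among the pore formers, BAX had the only other unadjusted p under 0.05. At day 0 BAX lay at 7.66 and 7.64 in SaOS-2 and at 7.94 and 7.93 in the clones, a difference of 0.29 (SE 0.12, adjusted p = 0.332 by limma), with both clones above both parental arrays. At days 7 and 14 the differences were 0.08 and 0.07 and the arrays overlapped. BAK1, the partner pore former, differed by 0.02, 0.13 and 0.27 in the fit without filter (adjusted p = 0.986, 0.822 and 0.537).

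In their representative probe sets the survival members differed little between the lines. BCL2L1 differed by 0.13, 0.11 and 0.07 (SE 0.10) and MCL1 by 0.01, 0.05 and -0.03 (SE 0.09, fit without filter). MCL1, a short-lived survival protein and the binding partner of PMAIP1, gave bright values of 11.37 to 11.75 over all 12 arrays. Of the 2 tested MCL1 probe sets, the brighter gave -0.02, 0.11 and 0.004 and the other -0.02, -0.32 and 0.11. Neither was called. In the latter at day 7 both clones lay below both parental arrays, by -0.09 in wt22 and -0.54 in wt36 from the parental mean (adjusted p = 0.232 by limma).

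**Figure D2:**
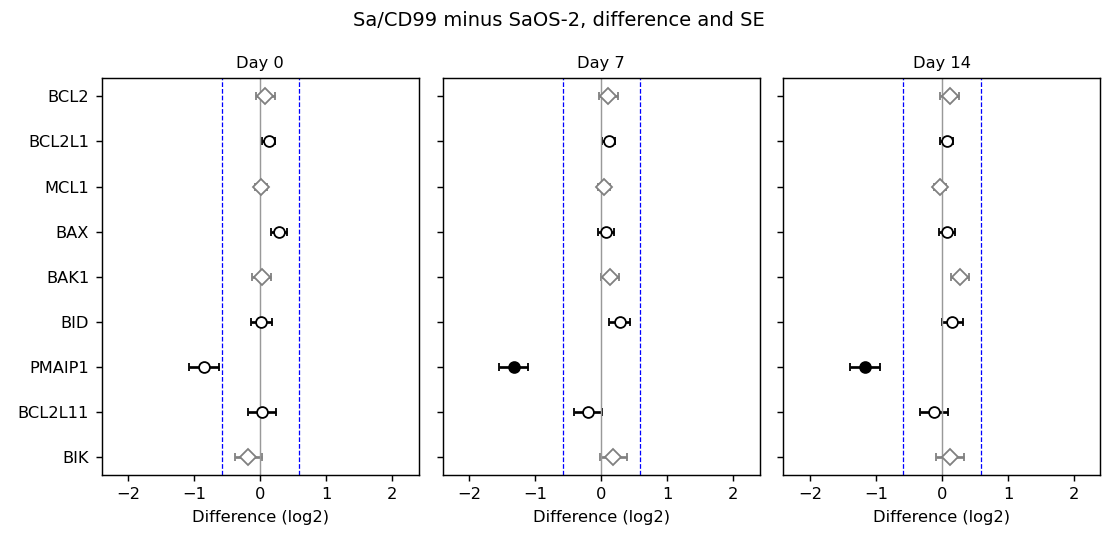
Log2 difference, Sa/CD99 minus SaOS-2, with its SE for the 9 measured members at days 0, 7 and 14. Black circles are tested members (filled when called), grey diamonds members from the fit without filter, and dashed lines mark 1.5-fold. PMAIP1 is the only filled point, at -1.32 and -1.17.

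BCL2 gave different answers by probe set. Its representative probe set lay between 5.80 and 6.44 on all arrays, below the floor, and differed between the lines by 0.07, 0.11 and 0.12. The probe set of second highest mean, singled out after its values were seen, was also below the floor on every array but moved. At day 0 it gave 5.04 and 5.28 in SaOS-2 against 4.77 and 4.52 in wt22 and wt36. At day 7 it gave 6.53 and 6.46 against 5.36 and 5.84, and at day 14 it gave 5.94 and 6.10 against 5.11 and 5.50. Both clones lay below both parental arrays on every day. In the fit without filter its differences were -0.52, -0.90 and -0.72, none past the threshold (adjusted p = 0.356, 0.0589 and 0.150 by limma). At signals this low neither probe set gives a firm level of BCL2.

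**Figure D3:**
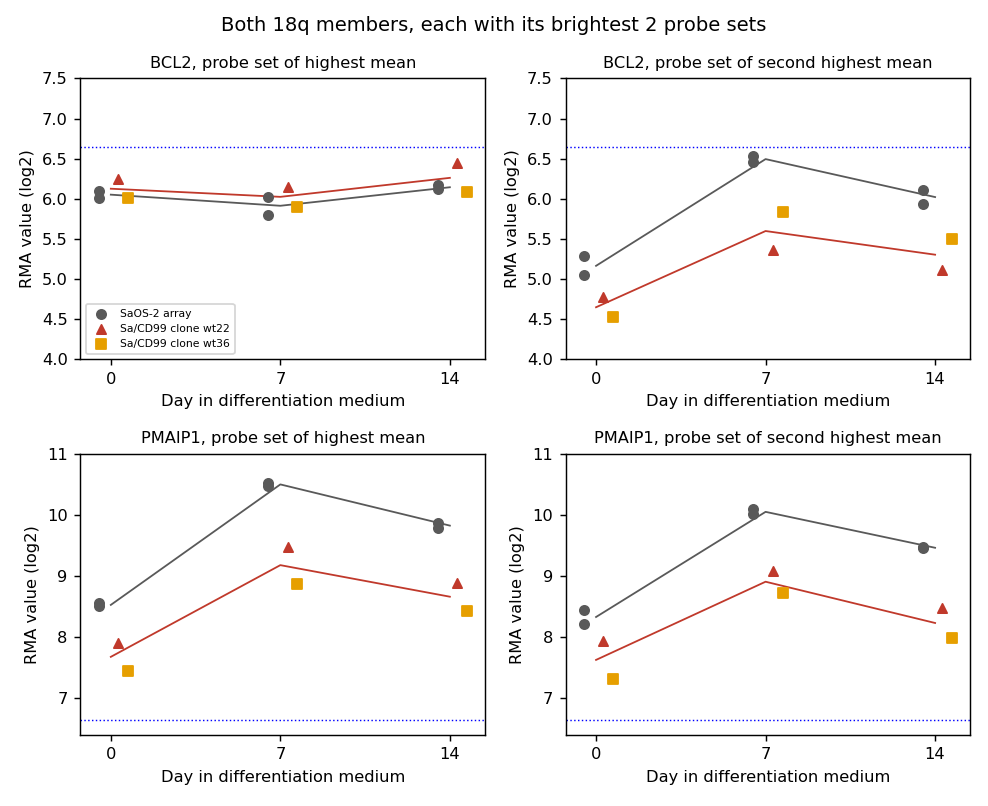
RMA values (log2) of the brightest 2 probe sets of BCL2 and of PMAIP1 array by array, by day of culture in differentiation medium, with grey circles for SaOS-2, red triangles for clone wt22, orange squares for clone wt36 and lines for group means of 2 arrays. All BCL2 values lie under the signal floor (dotted, 6.64), where one probe set is flat and the other rises to 6.53 in SaOS-2 at day 7.

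PMAIP1 and BCL2 were then set beside the rest of 18q. Of the other genes of this arm 82 were tested, and their median difference between the lines was -0.57 at day 0, -0.60 at day 7 and -0.57 at day 14, while the median over all 6644 genes tested was 0.01, 0.02 and -0.00. The difference was negative for 78, 79 and 80 of the 82 genes, and 22, 35 and 30 were called lower and 0 higher. Both clones showed the shift, with medians of -0.57, -0.69 and -0.67 in wt22 and -0.56, -0.55 and -0.58 in wt36. PMAIP1 lay further down than the median of its arm by 0.29, 0.73 and 0.59 on the log2 scale, and 7, 3 and 5 of the 82 genes lay lower still. The representative probe set of BCL2 lay above 80, 81 and 81 of them, and its second probe set had 46, 12 and 29 below it. The part of the arm-wide difference in the PMAIP1 values was not tested.

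The 8 genes over the floor that lie nearest to PMAIP1, 4 on either side, gave median differences of -0.62, -0.73 and -0.72. At day 7 the nearest on either side were LMAN1, a cargo receptor of the early secretory pathway (-0.73, SE 0.12, adjusted p = 0.018 by limma), and RELCH (-0.79, SE 0.11, adjusted p = 0.0109). MALT1, a protease of NF-kB signalling (-1.04), and ZNF532 (-0.72) were also called, while SEC11C (-0.14), ZCCHC2 (-0.56), KDSR (-0.75) and the pseudogene ACTBP9 (0.13, not tested for its small spread) were not. Around BCL2, where PMAIP1, RELCH, ACTBP9 and ZCCHC2 lie on one side and KDSR, VPS4B, DSEL and TMX3 on the other, 7, 7 and 8 of 8 differences were negative on the 3 days.

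**Figure D4:**
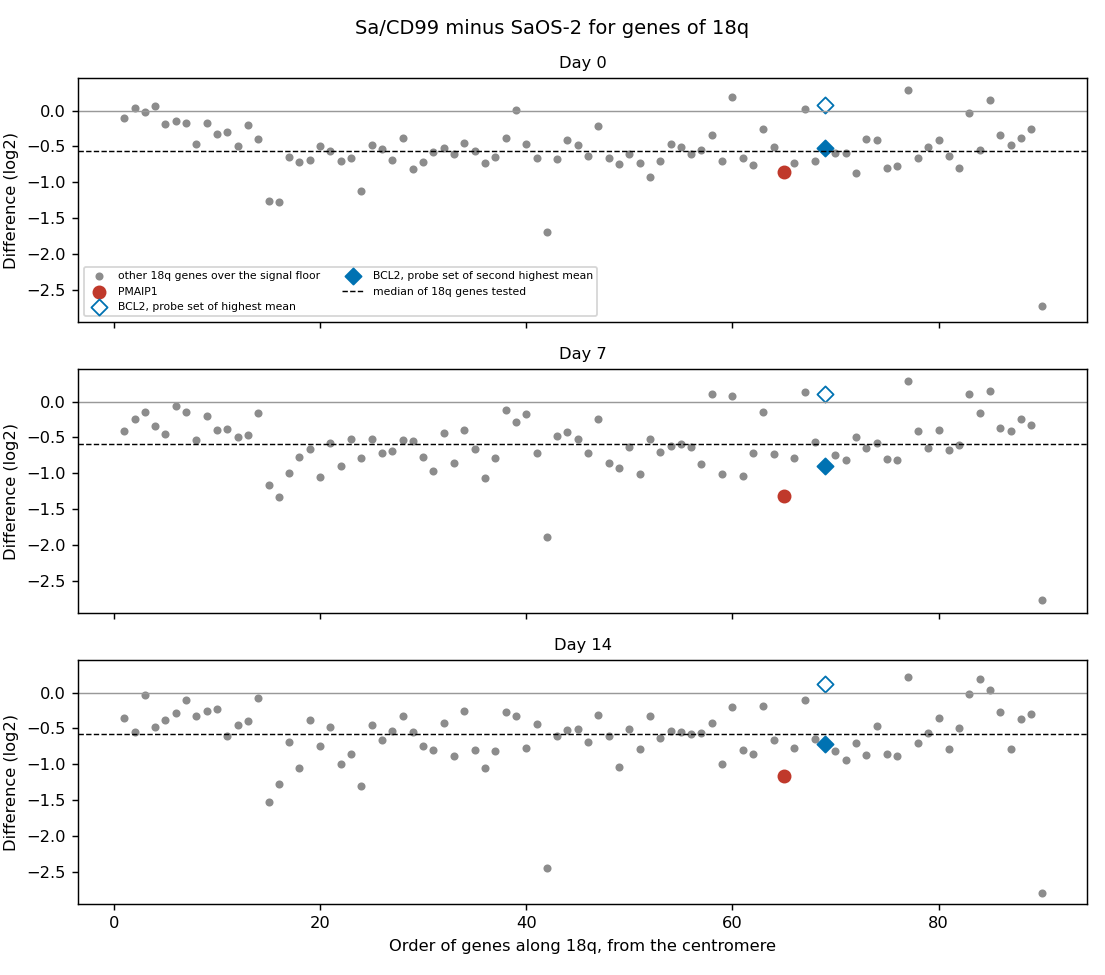
Log2 difference, Sa/CD99 minus SaOS-2, for genes of 18q over the signal floor in their order along the arm (a rank, not a distance), at days 0, 7 and 14. Grey points are other genes, the red point is PMAIP1, diamonds are the probe sets of BCL2 (open for the highest mean, filled for the second), and the dashed line is the median of the 82 tested genes. Most points lie below 0, and PMAIP1 lies below the dashed line on each day.

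The clones differed from each other more than the parental arrays did. Over the 9 measured members the median absolute difference between clones was 0.23, 0.28 and 0.36 at days 0, 7 and 14, against 0.05, 0.06 and 0.05 between parental arrays. The wider spread was not particular to the members. Over all tested probe sets the SD of the difference was 0.39, 0.41 and 0.42 between clones. Between parental arrays it was 0.14, 0.13 and 0.12. Clone wt36 lay below wt22 in 6, 7 and 7 of the 9 members, and the share over all genes was not counted, so these counts have no background.

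The second question was how the members changed in differentiation medium within each line. At day 7 of SaOS-2, PMAIP1 and BCL2L11 rose and BID fell, so 3 of 5 tested members were called (background 20.4%), and at day 14 PMAIP1, BCL2L11 and BAX rose, again 3 of 5 (background 14.7%). In the arrays labelled Sa/CD99, PMAIP1 and BCL2L11 rose at both times, 2 of 5 each (background 15.8% at day 7 and 19.7% at day 14). Of all genes tested, 10.9% rose and 9.44% fell at day 7 and 7.42% rose and 7.31% fell at day 14 in SaOS-2, and 8.22% rose and 7.59% fell at day 7 and 7.42% rose and 12.3% fell at day 14 in Sa/CD99. The 2 comparisons of a line share its day 0 arrays.

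PMAIP1 changed most among the members. In SaOS-2 it rose from 8.53 at day 0 to 10.50 at day 7, by 1.97 on the log2 scale or 3.93-fold (SE 0.22, adjusted p = 0.000399 by limma), and lay at 9.83 at day 14, 1.30 above day 0 (adjusted p = 0.00369). In the arrays labelled Sa/CD99 the mean rose from 7.68 at day 0 to 9.18 at day 7, or 2.83-fold (adjusted p = 0.00133), and lay 0.99 above day 0 at day 14 (adjusted p = 0.00962). Each clone lay higher on both later days than at day 0. The day 14 call was lost without wt22 of that day (0.76, adjusted p = 0.058) and in a fit of the 2 groups alone (adjusted p = 0.0951). The second probe set rose by 1.72 and 1.13 in SaOS-2 and by 1.28 at day 7 in Sa/CD99, and its change of 0.61 at day 14 missed the threshold (adjusted p = 0.057).

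BCL2L11 values in SaOS-2 were 7.85 and 8.09 at day 0, 8.78 and 8.89 at day 7, and 8.75 and 8.69 at day 14. The groups of the later days lay above day 0 without overlap, with changes of 0.86 (SE 0.21, adjusted p = 0.011 by limma) and 0.75 (SE 0.21, adjusted p = 0.0258). In wt22 and wt36 the values were 8.21 and 7.79 at day 0, 8.90 and 8.37 at day 7, and 8.80 and 8.40 at day 14. The changes of 0.63 (adjusted p = 0.042) and 0.60 (adjusted p = 0.0487) lay close to both thresholds. The SaOS-2 calls were lost at day 7 without replicate 1 of day 0 or replicate 2 of day 7 (adjusted p = 0.0685 to 0.0803) and at day 14 without any one of the 4 arrays compared (0.0763 to 0.140), and the Sa/CD99 calls without any one SaOS-2 array (0.0582 to 0.0729), without wt36 of day 0 or without wt22 of the later day (0.217 to 0.241). They were also lost without the filters (0.0683 and 0.0957). Over the 5 BCL2L11 probe sets that passed the signal filter, 4 in SaOS-2 at day 7 and 5 in each other comparison gave a positive change. Of these 5, 1 lay at 5.66 to 6.38 at day 0 and exceeded the floor only on arrays of days 7 and 14. It passed the filter through the later days, so its sign is no support for a rise.

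BID values in SaOS-2 were 9.26 and 9.24 at day 0 and 8.59 and 8.54 at day 7, so BID fell by 0.68 on the log2 scale (SE 0.16, adjusted p = 0.00927 by limma). Without replicate 1 of day 0 or replicate 2 of day 7 the adjusted p was 0.0566 and 0.0576. At day 14 the values were 9.11 and 9.14, a difference of -0.12 from day 0. In the arrays labelled Sa/CD99 the day 7 difference was -0.41 (adjusted p = 0.0703), and it passed without wt22 of day 0 or wt36 of day 7 (-0.60 and -0.59). The 2 other BID probe sets were not called, the mean over all of them missed the threshold in SaOS-2 at day 7 (-0.40, adjusted p = 0.0718), and over the 3 the SaOS-2 change at day 7 ran from -0.68 to -0.25.

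BAX values in SaOS-2 were 7.66 and 7.64 at day 0, 7.80 and 7.87 at day 7, and 8.32 and 8.45 at day 14. The day 14 arrays lay above all others of the line, and BAX rose by 0.74 from day 0 (SE 0.12, adjusted p = 0.00289 by limma), or 1.67-fold, a call held with every array left out in turn. In the arrays labelled Sa/CD99 the day 14 difference of 0.53 (adjusted p = 0.00962) stayed under 1.5-fold, and it passed without wt36 of day 14 (0.63) and with arrays centred or quantile-normalized over the tested probe sets (0.62 and 0.60). BAK1 changed by -0.37 and -0.05 in SaOS-2 and by -0.26 and 0.20 in Sa/CD99 (fit without filter), and none passed.

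BCL2L1 differed from day 0 by -0.43 in SaOS-2 and -0.44 in Sa/CD99 at day 7, with adjusted p of 0.00857 and 0.00848 by limma but under 1.5-fold. Its other 2 probe sets that passed the signal filter fell past both thresholds at day 7, by 0.69 and 0.65 in SaOS-2 and by 0.98 and 0.71 in Sa/CD99. The second of them exceeded the floor on 4 arrays, all of day 0 (6.86 to 7.03), and lay at 5.85 to 6.63 at day 7. It passed the filter only through the day where it was high, so its fall is no separate support. The first lay at 6.14 to 6.75 at day 7, around the floor. From day 0 to day 7 these 2 probe sets changed by -0.68 and -0.23 in wt22 and by -1.27 and -1.19 in wt36. The wt36 array of day 7 also had the largest difference between the 3′ and 5′ control probe sets of ACTB, a sign of RNA quality. It was 0.46 on the log2 scale against 0.11 to 0.24 on the other 11 arrays. Its part in the day 7 values of BCL2L1, PMAIP1 and the other members was not tested. At day 14 the representative stood at -0.07 and -0.12 from day 0. The MCL1 representative changed by 0.11 and -0.13 in SaOS-2 and by 0.15 and -0.17 in Sa/CD99 (fit without filter), with none passing. The 2 tested MCL1 probe sets fell at both times in both lines, always under 1.5-fold. The brighter gave -0.22 and -0.32 in SaOS-2 and -0.10 and -0.29 in Sa/CD99. Its adjusted p passed at day 14 (0.026 and 0.030 by limma). The other gave -0.14 and -0.50 in SaOS-2 and -0.44 and -0.37 in Sa/CD99. Its adjusted p passed at day 14 in SaOS-2 (0.028) and day 7 in Sa/CD99 (0.040). An untested MCL1 probe set above the floor gave 0.14 to 0.22. The BCL2 probe set of second highest mean gave day changes of 1.33 and 0.86 in SaOS-2 (adjusted p = 0.001 and 0.017, fit without filter) and of 0.95 and 0.66 in Sa/CD99 (adjusted p = 0.0066 and 0.048), all at values below the floor, whereas the representative gave -0.14, 0.09, -0.10 and 0.14.

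**Figure D5:**
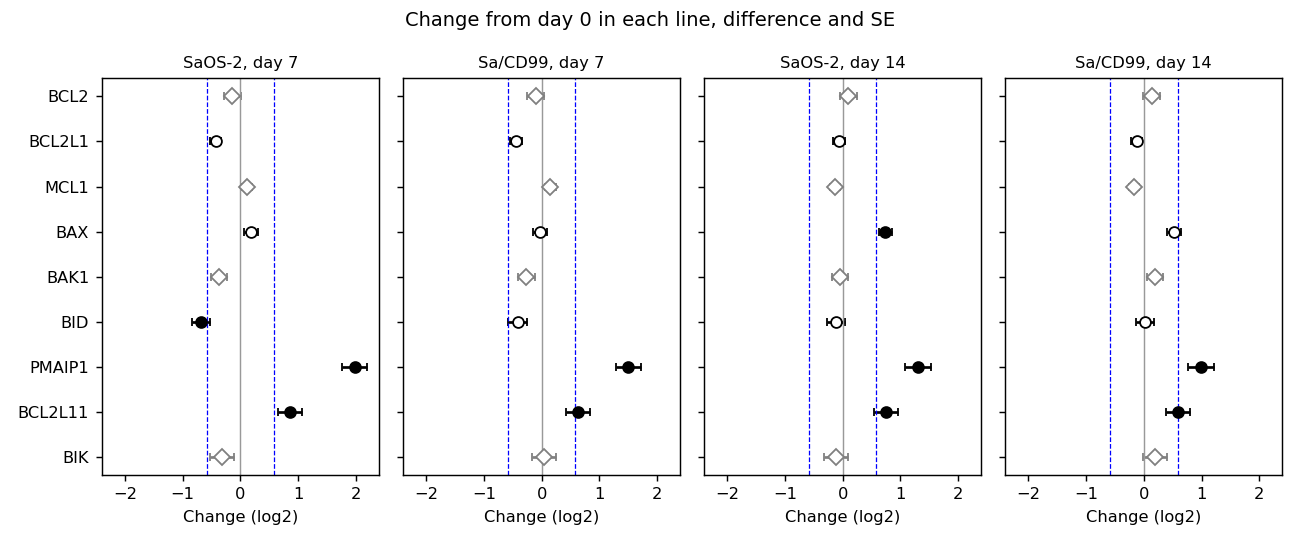
Log2 change from day 0 with its SE for the 9 measured members in each line at days 7 and 14, with symbols and dashed lines as in the plot of line differences. PMAIP1 and BCL2L11 are filled in all 4 panels, BID in SaOS-2 at day 7 and BAX in SaOS-2 at day 14.

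Whether the change over time differed between the lines was tested as an interaction. None of the 5 tested members was called at either time (background 0.0% of 6644 genes at both), and none had an unadjusted p under 0.05 by limma. For PMAIP1 the interaction was -0.47 at day 7 (SE 0.31, unadjusted p = 0.167) and -0.31 at day 14 (SE 0.31, unadjusted p = 0.344). The SE of an interaction at the median probe set was 0.20. With 0.0% of all genes called, the fit may have missed large differences in response as well as small ones.

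Over time the 82 tested genes of 18q had a median change of -0.00 and -0.14 at days 7 and 14 in SaOS-2 and of -0.05 and -0.21 in Sa/CD99. In SaOS-2, 7 of them rose and 5 fell at day 7, and 4 rose and 6 fell at day 14, and in Sa/CD99 6 rose and 7 fell at day 7, and 3 rose and 11 fell at day 14. The genes whose profile over the 12 arrays, each centred on its mean, lay nearest to that of PMAIP1 were CARD6 and CXADR (root mean square difference 0.387 on the log2 scale for both) and GPM6A (0.393), against a median of 0.983 over the 6644 genes compared.

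The promoters of the 3 members that rose are shown because they differ in what they hold. They are RefSeq sequences of GRCh38.p14, from 250 bases before to 50 after the annotated start, and were found for 8 of the 10 members, with MCL1 and BIK missing. Capitals mark, on either strand, the half-site CGTCA of the cAMP response element, the GC box GGGCGG, the forkhead motif TGTTTAC and the E-box CACGTG.
PMAIP1, chr18:59899746-59900045, plus strand: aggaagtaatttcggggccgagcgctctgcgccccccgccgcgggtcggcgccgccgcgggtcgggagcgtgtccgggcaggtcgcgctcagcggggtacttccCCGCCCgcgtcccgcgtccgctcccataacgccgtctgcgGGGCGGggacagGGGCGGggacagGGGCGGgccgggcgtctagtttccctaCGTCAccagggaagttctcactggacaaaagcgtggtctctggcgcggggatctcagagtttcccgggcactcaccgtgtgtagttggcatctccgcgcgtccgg
BCL2L11, chr2:111120664-111120963, plus strand: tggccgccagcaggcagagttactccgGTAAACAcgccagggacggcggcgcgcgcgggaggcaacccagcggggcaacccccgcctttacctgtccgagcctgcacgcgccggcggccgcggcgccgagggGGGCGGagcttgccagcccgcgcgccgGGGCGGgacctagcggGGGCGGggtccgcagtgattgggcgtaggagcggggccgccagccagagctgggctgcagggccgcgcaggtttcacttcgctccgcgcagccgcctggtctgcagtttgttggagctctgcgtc
BAX, chr19:48954625-48954924, plus strand: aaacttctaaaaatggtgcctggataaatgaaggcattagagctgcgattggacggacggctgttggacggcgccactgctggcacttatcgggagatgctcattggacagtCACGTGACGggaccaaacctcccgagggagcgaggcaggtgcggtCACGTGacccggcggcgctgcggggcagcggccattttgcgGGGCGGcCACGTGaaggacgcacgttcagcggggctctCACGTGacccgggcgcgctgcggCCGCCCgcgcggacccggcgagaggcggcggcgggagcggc

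The PMAIP1 promoter held 1 half-site CGTCA and 4 GC boxes, 3 forward and 1 reverse. The BCL2L11 promoter held 3 GC boxes and 1 forkhead motif on the reverse strand, and the BAX promoter held 4 E-boxes, 2 GC boxes and 1 reverse half-site that overlaps an E-box. Of all 27305 promoters of this length, 25% held CGTCA, 44.6% GGGCGG, 3.41% TGTTTAC and 7.43% CACGTG. The search also covered TATAAA (12% of promoters), CCAAT (35.7%), TTTCCCGC (1.66%) and TGATGCAA (0.923%), of which CCAAT alone was found, reversed, in BCL2L11 (1) and BAX (2). GC made up 71.3%, 74.7% and 67.3% of the PMAIP1, BCL2L11 and BAX windows against a median of 58.3%. A match of letters is not a binding site.

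The wider apoptosis pathway was read from 7 lists with 110 genes, 101 with a probe set of their own and 54 tested. Between the lines 1 of the 54 was called on each day (1.85% of them, all lower, against 0.978%, 1.28% and 1.48% called lower over all genes tested). It was BAG5, a co-chaperone of the BAG family encoded on chromosome 14. In arrays labelled Sa/CD99 it was lower, by -0.64, -0.73 and -0.64 on the log2 scale (SE 0.09, adjusted p = 0.0108, 0.00636 and 0.00977 by limma).

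Over time in SaOS-2, 7 of the 54 rose and 2 fell at day 7 (13% and 3.7%, against 10.9% and 9.44% of all genes tested), and 3 rose and 2 fell at day 14 (5.56% and 3.7%, against 7.42% and 7.31%). In the arrays labelled Sa/CD99, 3 rose and 1 fell at day 7 (5.56% and 1.85%, against 8.22% and 7.59%), and 4 rose and 7 fell at day 14 (7.41% and 13%, against 7.42% and 12.3%). Among 15 further genes of the BCL2 family and its partners tested, BNIP3, a mitophagy receptor induced by low oxygen, changed most, with -2.78 and -2.99 in SaOS-2 and -2.54 and -2.68 in Sa/CD99 at days 7 and 14 (largest adjusted p = 3.53e-05). Its relative BNIP3L fell at day 14 in both lines (-1.20 and -1.34). The outer membrane channel VDAC1 rose at day 7 in both (0.60 and 0.74), BNIP2 fell in Sa/CD99 at day 14 (-0.95), and BCLAF1 rose in SaOS-2 at day 7 (0.60) and fell in Sa/CD99 at day 14 (-0.60).

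Of 8 death receptor pathway genes tested, none was called lower over time. Per comparison 7.31% to 12.3% of all genes tested fell, and a list of 8 genes is too small to set 0 apart from that share. FAS, the receptor for FAS ligand, rose at day 7 in both lines (0.70 and 0.65). TNFRSF21 rose in all 4 comparisons, by 0.62 to 0.82, and TNFRSF1A, a TNF receptor, in 3 of them (0.64 and 0.80 in SaOS-2 and 0.82 in Sa/CD99 at day 14). ATF3, a stress-induced transcription factor, rose in SaOS-2 at both times (1.12 and 0.96) and in Sa/CD99 at day 14 (0.73). Of 3 inhibitors of apoptosis tested, XIAP rose (0.66) and BIRC5 (survivin) fell (-0.71) in SaOS-2 at day 7, and BIRC2 fell in Sa/CD99 at day 14 (-0.77).

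No tested gene of the apoptosome and executioner caspase list (8 genes) or of the list of ubiquitin ligases and partners of MCL1 and BIM (4 genes) was called in any comparison by limma, although at an unadjusted p under 0.05 there were 1 to 5 of the former and 0 to 3 of the latter per comparison. Of 9 p53-responsive genes tested, SESN2 rose (0.77) and GADD45A (-0.64) and TIGAR (-0.63) fell in Sa/CD99 at day 14, where 6 had an unadjusted p under 0.05. In the other comparisons limma called 0 of the 9, with 0 to 4 at an unadjusted p under 0.05, and the difference between the lines in the day 14 change was called for 0 of them. The share of all genes at an unadjusted p under 0.05 was not counted, so the counts at that level in these lists have no background. In Sa/CD99 at day 14, 19.7% of all genes tested were called even after adjustment. The median differences between the lines at day 7 were 0.11 in the further BCL2 family genes, 0.19 in the caspase list, 0.18 in the death receptor list, 0.20 in the p53-responsive list, 0.04 in the list of transcription factors of BH3-only genes, -0.06 in the ubiquitin ligase list and -0.37 in the inhibitors of apoptosis, against 0.02 over all genes tested.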

How the data were processed

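Total RNA of 12 samples, 6 per line, was measured on single-colour arrays. The deposited values are log2 signals of probe sets from RMA, run by the authors, which corrects background, quantile-normalizes and summarises probes. Of tools, the submitters' processing notes list affy and RMA, and their versions are not given in the sources used here. The members and lists were chosen with earlier results of these data known. Probe sets not exceeding a signal of 100 in 9 or more of the 12 arrays, or an interquartile range not above the median of 0.219, were left out, as were 62 controls, which left 12894 of 54675. Names came from the platform annotation, updated by gene ID through RefSeq (41037 of 41091 probe sets with 1 gene matched). Arms were assigned with a rounded centromere position from general knowledge.

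A mean per group was fitted with limma 3.58.1 in R 4.3.3 (6 residual and 3.18 prior degrees of freedom), with Benjamini-Hochberg adjustment over all tested probe sets. Background shares are of 6644 genes. The median SE was 0.14 between 2 groups, and the number of arrays limits the precision. The fit was also run on simulated data. These had equal, independent noise in both lines, so they do not cover the wider spread between clones or its correlation over days. Clone numbers mark the same transfected line on each day (correlation of the clone difference between days 0.58, 0.32 and 0.63). The main fit held no clone term and treated the arrays of a clone as independent. Clone entered only in the alternatives with the replicate as a block or 1 clone kept. Parental numbers were not treated as pairs in the main fit either (-0.04, 0.24 and -0.05). The text names all members, called genes of the lists (up to 6 per list between lines and 4 between days), the 4 nearest genes on either side of BCL2 and PMAIP1 and the 3 nearest profiles of members called between the lines. Alternatives covered filters, centring, quantile normalization, array weights, an intensity trend, the clone as a block, the groups compared alone, 1 clone kept, other probe sets and each array left out.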

Additional observations from a re-analysis of the deposited data

How the results depend on the processing

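Between the lines at day 0, 1 member (PMAIP1) in place of 0 was called with array weights by line, with the replicate block (clone as a fixed term) and with either clone kept alone. With the groups compared alone 0 were called between the lines at days 7 and 14. In Sa/CD99 at day 7, 1 in place of 2 was called with the signal filter only, without filter, with array weights, with the groups compared alone and with clone wt36 kept. In Sa/CD99 at day 14, 1 was called with the signal filter only, without filter, with array weights and with the mean over probe sets, and 0 with the groups compared alone and with the probe set of second highest mean, while 3, BAX among them (0.62, 0.60 and 0.63), were called with centred arrays, with quantile normalization and with clone wt22 kept. In SaOS-2 at day 14, 2 in place of 3 were called with the mean over probe sets, where BCL2L11 (0.49) missed the fold. Apart from arrays left out, no other setting moved a count, the random block included, but with the mean over probe sets or the second probe set BCL2L1 (-0.59 and -0.69) took the place of BID among the 3 called in SaOS-2 at day 7. In Sa/CD99 at day 7 the same settings called 1 higher and 1 lower in place of 2 higher. With the second probe set BCL2L1 (-0.98) was called there and BCL2L11 (0.54, adjusted p = 0.0743 by limma) was not. Without each array in turn the counts ran from 0 to 0 between the lines at day 0, from 0 to 1 at days 7 and 14, from 1 to 3 and from 2 to 3 in SaOS-2 at days 7 and 14, from 1 to 3 and from 0 to 3 in Sa/CD99, and from 0 to 0 for both interactions. The 18q median at day 0 was -0.54 over genes above the floor. Uncalled differences near 0 changed sign. With centred arrays, BCL2L1 gave 0.015 (SaOS-2 day 14), BCL2L1 gave 0.032 (interaction at day 7). With quantile normalization, BCL2L1 gave 0.015 (SaOS-2 day 14), BCL2L1 gave 0.018 (interaction at day 7). With wt36 kept, BCL2L11 gave -0.18 (between lines at day 0), BAX gave -0.065 (between lines at day 7), BCL2L1 gave -0.014 (between lines at day 14), BAX gave -0.032 (between lines at day 14), BID gave -0.011 (Sa/CD99 day 14). With wt22 kept, BID gave -0.17 (between lines at day 0), BCL2L11 gave 0.065 (between lines at day 7), BCL2L11 gave 0.077 (between lines at day 14), BAX gave 0.11 (Sa/CD99 day 7), BCL2L1 gave 0.043 (Sa/CD99 day 14), BCL2L1 gave 0.070 (interaction at day 7), BCL2L1 gave 0.11 (interaction at day 14). With the mean over probe sets, BID gave -0.042 (between lines at day 0), BCL2L11 gave -0.067 (between lines at day 0), BCL2L1 gave -0.026 (between lines at day 7), BCL2L1 gave 0.060 (interaction at day 14). With the second probe set, BID gave -0.093 (between lines at day 0), BCL2L1 gave -0.12 (between lines at day 7), BID gave -0.018 (between lines at day 7), BAX gave -0.010 (SaOS-2 day 7), BCL2L1 gave 0.0077 (interaction at day 14). The second BCL2 probe set, an alternative chosen after seeing the data, gave -0.52, -0.90 and -0.72 between the lines and 1.33 and 0.95 for SaOS-2 and Sa/CD99 at day 7, against the signs of the first. Without each array in turn, BCL2L11 ran from -0.18 to 0.24 (between lines at day 0), -0.36 to 0.061 (interaction at day 14), -0.47 to 0.065 (between lines at day 7), -0.50 to 0.038 (interaction at day 7), -0.32 to 0.077 (between lines at day 14). BCL2L1 ran from -0.097 to 0.067 (interaction at day 7), -0.14 to 0.027 (interaction at day 14), -0.014 to 0.16 (between lines at day 14). BID ran from -0.16 to 0.21 (Sa/CD99 day 14), -0.042 to 0.33 (interaction at day 14), -0.17 to 0.20 (between lines at day 0). BAX ran from -0.065 to 0.22 (between lines at day 7), -0.16 to 0.12 (Sa/CD99 day 7), -0.032 to 0.18 (between lines at day 14). The cause of these changes was not tested. With 2 arrays per group, and members near the floor, changes under 1.5-fold are poorly resolved.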
